A study of Homo sapiens with 3 samples.

Results

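Genes of cholesterol and fatty acid synthesis were followed in HT29 cells that carried a miR-146a construct. HT29 is an established cell line of human colorectal cancer. The genes were taken from a list of 31 enzymes and regulators, and a gene was measured where the platform annotation tied a probe set to it alone. This gave 29 genes of the 19777 in the series, with 63 probe sets. FDFT1 and CYP51A1 were not analysed here. All 29 lay among the 12444 genes above the filter on low signal, a log2 value of 5.13. A probe set is a group of short probes on the array that together read 1 transcript region.

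The series has 3 arrays. The control is HT29 transduced by lentivirus with an empty vector (1 array), and the other group is HT29 transduced the same way with a construct for miR-146a (2 arrays, replicates 1 and 2). All cells grew in DMEM with 10% serum. Neither the promoter that drives the construct nor whether cells were cloned or pooled is stated in the labels. The labels also leave unsaid whether the 2 replicates grew as separate cultures. The p-values then measure no more than array-to-array spread, which may be technical. All 10 epithelial markers, among them EPCAM, KRT8, CDX2 and VIL1, lay above the filter in these cells, as did 2 of 6 fibroblast, 1 of 4 immune and 1 of 4 endothelial markers, and PTPRC, CD3E, CDH5 and VWF lay below it. The medians of the 3 lists of other cells ran from 3.88 to 4.40 over the arrays, against 11.62 to 11.74 for the epithelial list.

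Cholesterol is built from acetyl-CoA through mevalonate, isoprenoid units, squalene and lanosterol. The transcription factors encoded by SREBF1 and SREBF2 switch on most genes of this route and of fatty acid synthesis. They are made as membrane proteins of the endoplasmic reticulum, where SCAP escorts them to the Golgi for cleavage when sterols are scarce, and the INSIG proteins hold SCAP back when sterols are plentiful. INSIG1 is itself a target of these factors, so its transcript is commonly read as a measure of their activity.

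The microRNA named by the construct is printed as RefSeq gives it, with the seed, bases 2 to 8, in capitals. It lies at chr5:160485372-160485393 on the plus strand of GRCh38.p14.
hsa-miR-146a-5p: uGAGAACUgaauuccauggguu

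For 6 genes the 250 bases before the transcription start are shown next, from the RefSeq promoter table (GRCh38.p14). MSMO1, INSIG1, INSIG2 and STARD4 are the genes called lower in the gene-level test with the second variance prior described below. HMGCS1 is shown because 1 of its probe sets passed alone while the other did not, and SREBF2 because its window was the only one of this group with a sterol element. Capitals mark the NF-Y box CCAAT on either strand (printed as ATTGG where it lies on the strand opposite to the gene), the E-box CACGTG and the sterol regulatory element TCACNCCAC on either strand. The GC box GGGCGG was searched too and is left in lower case. Where the table held 2 windows for a gene (INSIG2 and HMGCS1), the first listed is shown. Positions are, in this order, chr4:165327419-165327668 on the plus strand for MSMO1, chr7:155297628-155297877 on the plus strand for INSIG1, chr2:118088221-118088470 on the plus strand for INSIG2, chr5:111512536-111512785 on the minus strand for STARD4, chr5:43313413-43313662 on the minus strand for HMGCS1 and chr22:41832855-41833104 on the plus strand for SREBF2.
MSMO1: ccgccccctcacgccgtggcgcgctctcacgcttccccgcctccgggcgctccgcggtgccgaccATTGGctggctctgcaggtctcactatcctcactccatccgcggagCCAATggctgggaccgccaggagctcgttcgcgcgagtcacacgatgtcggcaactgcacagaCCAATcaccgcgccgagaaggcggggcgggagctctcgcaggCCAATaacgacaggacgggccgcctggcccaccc
INSIG1: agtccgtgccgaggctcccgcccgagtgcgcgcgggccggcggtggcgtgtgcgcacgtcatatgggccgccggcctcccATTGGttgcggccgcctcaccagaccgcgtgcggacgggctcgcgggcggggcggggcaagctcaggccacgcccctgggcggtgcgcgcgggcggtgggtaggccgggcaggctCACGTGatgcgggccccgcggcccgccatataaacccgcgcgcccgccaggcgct
INSIG2: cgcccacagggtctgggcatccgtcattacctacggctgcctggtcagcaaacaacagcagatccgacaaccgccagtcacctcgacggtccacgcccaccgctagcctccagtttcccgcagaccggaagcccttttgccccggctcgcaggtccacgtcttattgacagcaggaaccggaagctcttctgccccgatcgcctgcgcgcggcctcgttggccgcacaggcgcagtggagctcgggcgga
STARD4: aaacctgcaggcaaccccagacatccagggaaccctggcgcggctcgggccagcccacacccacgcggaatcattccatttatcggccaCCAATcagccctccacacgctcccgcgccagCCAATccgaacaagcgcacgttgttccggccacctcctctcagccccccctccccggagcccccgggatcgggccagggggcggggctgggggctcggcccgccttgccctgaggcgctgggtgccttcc
HMGCS1: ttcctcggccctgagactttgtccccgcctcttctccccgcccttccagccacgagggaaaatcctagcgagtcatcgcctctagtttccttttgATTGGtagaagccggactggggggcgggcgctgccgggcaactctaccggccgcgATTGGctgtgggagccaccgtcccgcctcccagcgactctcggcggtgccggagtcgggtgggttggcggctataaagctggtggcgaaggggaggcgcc
SREBF2: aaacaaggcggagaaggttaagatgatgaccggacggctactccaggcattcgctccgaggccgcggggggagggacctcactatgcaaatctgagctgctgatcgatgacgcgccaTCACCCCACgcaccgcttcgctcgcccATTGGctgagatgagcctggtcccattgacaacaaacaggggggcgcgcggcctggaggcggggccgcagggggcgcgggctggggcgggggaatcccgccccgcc

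Promoter windows of 300 bases were found for 27 of the 31 genes. FDFT1, SQLE, ACAT2 and FASN had no entry. The NF-Y box, bound by the factor that works beside SREBPs at many sterol promoters, stood in 19 of the 27 genes (70.4%), against 39.7% of the 27305 genes in the table. MSMO1 had 4 such boxes in the stretch shown, STARD4 and HMGCS1 had 2 each, INSIG1 and SREBF2 had 1 each, and INSIG2 had none. The GC box stood in 25 of 27 genes against 48.3% of all. The E-box was found in INSIG1, LSS, SC5D and SCAP, which is 14.8% against 8.77%. The sterol regulatory element was found only in SREBF2 among the 27, or 3.70% against 1.39%. The shares over all genes cover the whole promoter table, and no share was computed for the genes above the filter alone. A match is a stretch of letters, and no match says only that these letters are not in this window.

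The 29 genes, enzymes and regulators together, did not go one way. INSIG1, INSIG2, STARD4 and MSMO1 were 1.24-fold to 1.34-fold lower in the miR-146a arrays. These 4 passed the test across genes only with the second variance prior described below, and not with the standard prior. FASN, DHCR7, ELOVL6, SCAP and NSDHL were 1.18-fold to 1.27-fold higher and did not pass the test across genes with either prior. The median over the 29 genes was 0.05 on the log2 scale, against 0.01 over all 12444 genes. In both miR-146a arrays 16 of the 29 genes were higher than the vector, where 40.2% of all genes were, and 7 were lower, where 28.8% of all genes were. As shares of the 29 these are 55.2% and 24.1%. The plot of differences in each array shows how the groups of genes lay.

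**Figure D1:**
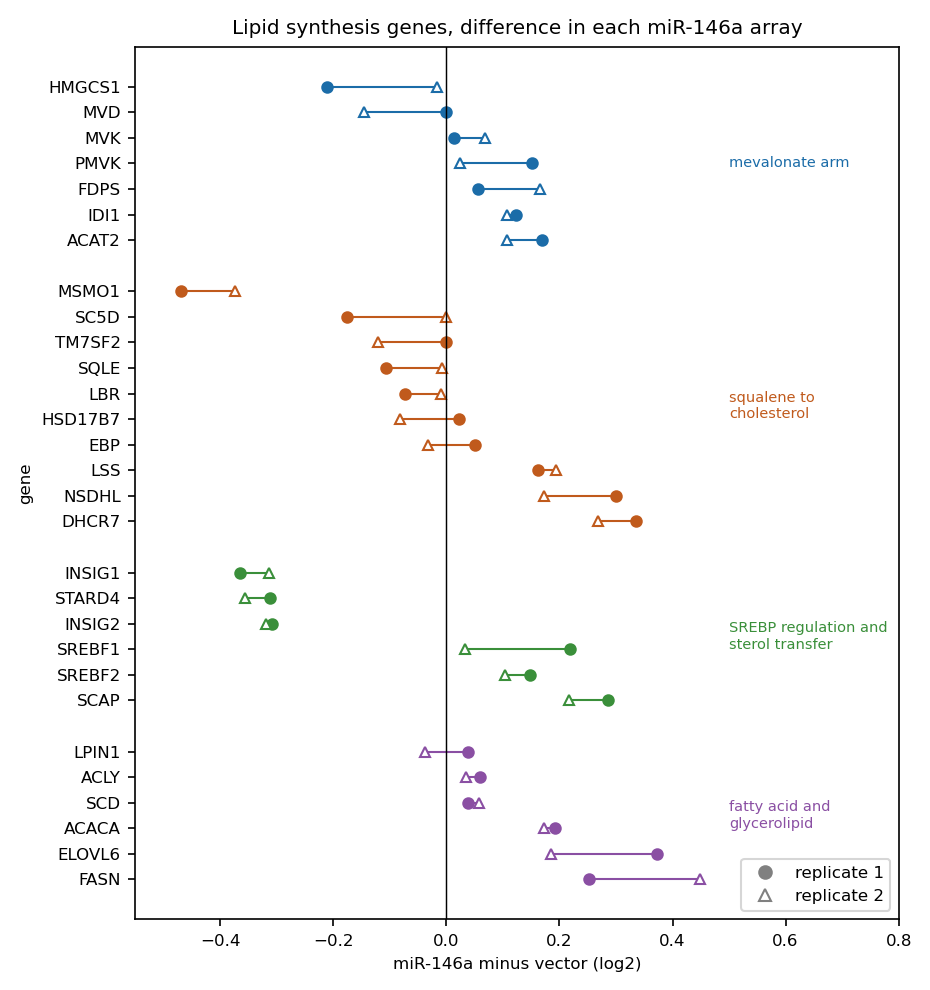
Difference from the vector on the log2 scale (x axis) for each of the 29 genes (y axis), in miR-146a replicate 1 (filled circles) and replicate 2 (open triangles), coloured by role. MSMO1, INSIG1, STARD4 and INSIG2 lay left of -0.3 in both arrays, and the fatty acid genes FASN, ELOVL6 and ACACA lay right of 0 in both.

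Differences throughout are the miR-146a mean minus the vector on the log2 scale, with SDs over the 2 miR-146a arrays. Testing was two-sided, by limma across all genes, with p-values adjusted after Benjamini and Hochberg and called at 0.05. It called 0 of the 29 genes and 0 of 12444 (0%). By the same test 2933 of the 12444 genes had an unadjusted p under 0.05, and 8 of the 29 did, a similar share. The variance prior of that test is drawn down by 1610 genes whose replicates hold exactly equal values. With the prior taken from the other genes, limma called 592 genes higher (4.76%) and 294 lower (2.36%). Of the 29 it called 0 higher and 4 lower, which is 13.8%. This test takes the single vector array to vary like the miR-146a arrays, and its standard errors for the 29 genes ran from 0.086 to 0.099.

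Signals at the 5′ end of the control transcripts ACTB and GAPDH were lower in the same arrays. ACTB differed by -0.29 and -0.18 at its 5′ control probe set and by 0.05 and 0.04 at its 3′ one, and GAPDH by -0.32 and -0.30 at the 5′ end and by -0.03 and -0.02 at the 3′ end. The middle probe sets differed by -0.10 and -0.07 for ACTB and by -0.09 and -0.09 for GAPDH. The sizes at the 5′ end are those of the differences in INSIG1 or STARD4. The sources used here do not place the probe sets of the 29 genes along their transcripts. The part of this shift in the results was not tested. In bulk RNA, fewer cells with a transcript and less of it per cell cannot be told apart.

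Among the regulators of SREBP processing both INSIG transcripts were lower, while SCAP, SREBF1 and SREBF2 lay above the vector without passing a test. INSIG1, the retention protein, read 11.05 in the vector and 10.68 and 10.73 in miR-146a replicates 1 and 2, respectively. Both miR-146a values lay below the vector, by much more than they lay apart. The difference was -0.34 with a standard error of 0.086 (adjusted p = 0.0376 by limma with the prior from unequal replicates, 0.156 with the standard prior, up to 0.196 under the alternatives). Of the 12444 genes, 292 differed further downwards. Its other probe sets, from the same arrays and so not independent, were lower by more. The first read 10.44 in the vector and 9.83 and 9.84 in the miR-146a arrays, and the second read 9.46 and then 8.94 and 8.79. Their differences were -0.61 and -0.59, so the probe set with the highest signal gave the smallest of the 3 values.

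INSIG2, the paralog that retains SCAP in the same way, read 8.21 in the vector and 7.90 and 7.89 with miR-146a. The latter values nearly coincided (SD 0.01, n = 2) and lay 1.24-fold below the vector. The difference of -0.31 passed limma narrowly with the prior from unequal replicates (adjusted p = 0.0493) and not with the standard prior (adjusted p = 0.118, tied with other genes for the smallest, and up to 0.196 under the alternatives). When every probe set was tested on its own with that prior, INSIG2 did not pass (adjusted p = 0.0551). It had 1 probe set.

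STARD4, a carrier that moves cholesterol between membranes and is itself induced when sterols are low, read 8.95 in the vector and 8.64 and 8.59 in the miR-146a arrays. Its difference of -0.33 was close to that of INSIG1 (adjusted p = 0.0395 by limma with the prior from unequal replicates, 0.146 with the standard one, and up to 0.196 under the alternatives). STARD4 too had a single probe set.

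SCAP, the escort, was higher in both arrays, at 8.85 and 8.78 against 8.56 in the vector. Its difference of 0.25 did not pass limma under any prior (adjusted p = 0.115 at the lowest). SREBF1, which encodes the factor tied mostly to fatty acid genes, read 9.14 in the vector and 9.36 and 9.18 in the miR-146a arrays, so replicate 2 lay near the vector. Its second probe set held 6.02 in all 3 arrays. SREBF2, which encodes the factor tied mostly to sterol genes, read 8.34 against 8.49 and 8.44, a difference of 0.13, and its other probe sets differed by 0.11 and 0.04. Neither SREBF gene passed a test, and transcript levels do not show how much of either factor was cleaved.

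**Figure D2:**
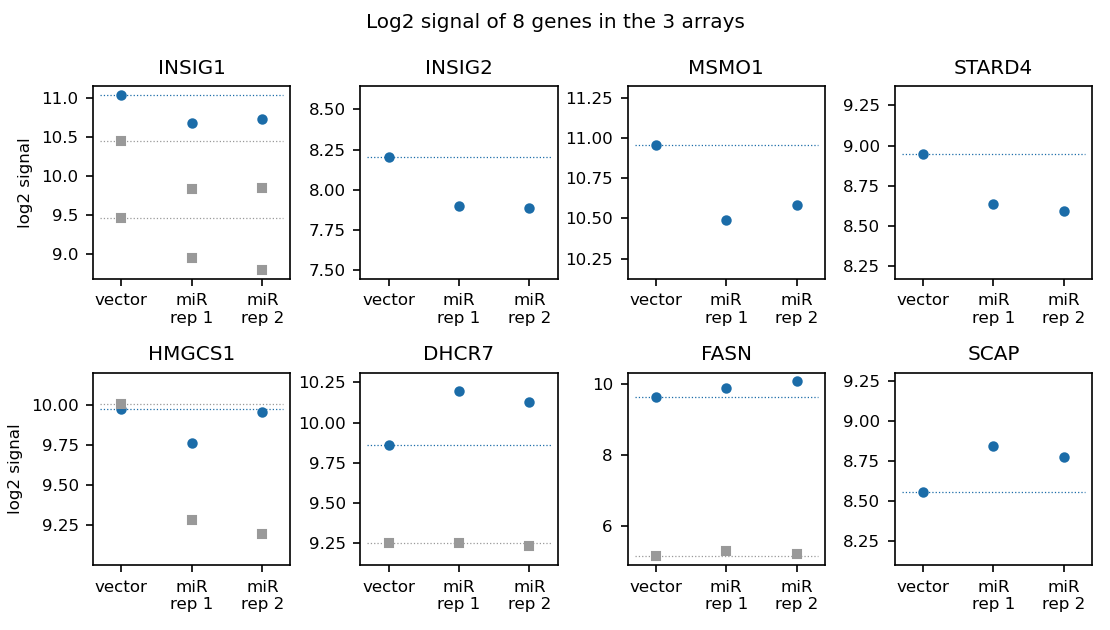
Log2 signal (y axis, with a range of its own in each panel) of 8 genes in the vector array and in miR-146a replicates 1 and 2 (x axis). Blue circles are the probe set used for the gene, grey squares its other probe sets above the filter, and dotted lines mark the vector's value. All 3 probe sets of INSIG1 lay below the vector in both arrays, while those of HMGCS1 and DHCR7 differed from each other.

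In the probe sets used, mevalonate genes lay close to the vector. HMGCS1 departed further only at its other probe set. Of the 7 genes, 5 lay above the vector in both arrays and 1 lay below it, with a median of 0.09, and none passed the test across genes. ACAT2, the thiolase that joins acetyl-CoA units, read 8.94 in the vector and 9.11 and 9.04 in the miR-146a arrays. IDI1, the isomerase of the isoprenoid units, read 10.49 against 10.62 and 10.60, and FDPS, which joins these units to farnesyl diphosphate, read 10.63 against 10.69 and 10.80. The other probe sets of IDI1 differed by 0.01, 0.08 and 0.16. For the first of these, nearly as bright as the one used, the vector lay between the replicates. MVK, PMVK and MVD, the kinases and the decarboxylase that turn mevalonate into isopentenyl diphosphate, differed by 0.04, 0.09 and -0.07. Among these genes MVD had exactly the vector's value in replicate 1.

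HMGCS1, the synthase before mevalonate, gave unlike answers from its 2 probe sets. The probe set used, that of higher mean signal, read 9.97 in the vector and 9.76 and 9.96 in the miR-146a arrays. Replicate 2 was at the vector's level, and the difference of -0.11 was smaller than the SD of 0.14 (n = 2). The other probe set read 10.01 in the vector and 9.28 and 9.20 in the miR-146a arrays. That is a difference of -0.77, 1.71-fold lower, with both arrays far from the vector and near each other. It passed when every probe set was tested on its own (adjusted p = 0.000196 by limma with the prior from unequal replicates, a setting added after the data were seen, against 0.137 with the standard prior). With all probe sets averaged HMGCS1 differed by -0.44. The gap of 0.66 between its probe sets was wide. Of the 5922 genes with at least 2 probe sets above the filter, 143 (2.41%) had a wider one.

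From squalene to cholesterol, 3 of 10 genes were higher in both arrays, 3 were lower and 4 were neither, with a median of -0.04. MSMO1, the methylsterol oxidase that removes methyl groups from lanosterol's products, had the largest difference among the 29 genes in the probe sets used. With probe sets averaged INSIG1 (-0.51) and HMGCS1 (-0.44) differed by more. MSMO1 read 10.96 in the vector and 10.49 and 10.59 in the miR-146a arrays. Both lay well below the vector, and the difference of -0.42, with a standard error of 0.089, was 1.34-fold (adjusted p = 0.0164 by limma with the prior from unequal replicates, 0.198 with the standard one, and up to 0.237 under the alternatives). Only 160 genes of 12444 differed further downwards. MSMO1 had 1 probe set.

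The enzymes that act with MSMO1 on the same methyl groups did not share its direction. NSDHL, the dehydrogenase that follows it, read 8.91 in the vector and 9.21 and 9.09 in the miR-146a arrays, and its second probe set differed by 0.03. HSD17B7, the ketoreductase of the same cycle, read 9.39 against 9.41 and 9.31, so the vector lay between the replicates. Its only probe set is of the _x_at kind, which Affymetrix uses for probes that can also bind other transcripts. The probe set used for IDI1 is of this kind too.

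DHCR7, a late reductase of the route to cholesterol, read 9.86 in the vector and 10.20 and 10.13 in the miR-146a arrays, a difference of 0.30 (adjusted p = 0.0629 by limma with the prior from unequal replicates, up to 0.239 under the alternatives). Its second probe set read 9.25, 9.25 and 9.23, at the vector's level. LSS, which closes squalene epoxide to lanosterol, was at 9.27 and 9.30 against 9.10. EBP, the sterol isomerase, SC5D, the sterol desaturase, and the reductases TM7SF2 and LBR, of which LBR is also an anchor of the nuclear lamina, differed by 0.01, -0.09, -0.06 and -0.04. SC5D had exactly the vector's value in replicate 2, and TM7SF2 in replicate 1.

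SQLE, the squalene epoxidase and a rate-limiting step, was read by 4 probe sets above the filter. The one used read 11.87 in the vector and 11.77 and 11.86 in the miR-146a arrays, a difference of -0.06. The others differed by 0.15, -0.17 and -0.52. The lowest of them read 10.09 against 9.55 and 9.59, with both arrays clearly below the vector. It passed on its own (adjusted p = 0.0033 by limma with the prior from unequal replicates, against 0.130 with the standard prior). The span of 0.67 was exceeded by 126 of the 5922 genes (2.13%).

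**Figure D3:**
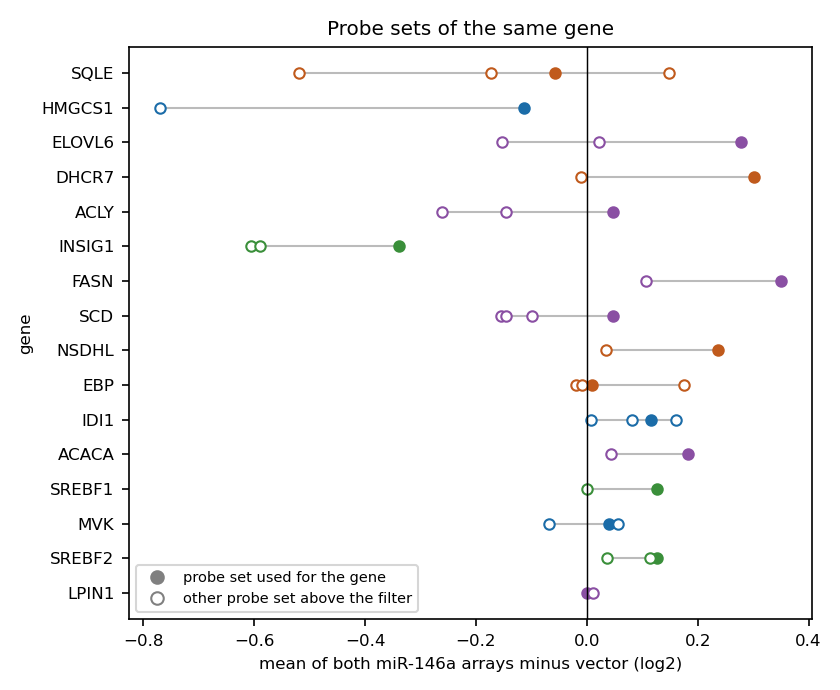
Mean difference from the vector on the log2 scale (x axis) of each probe set above the filter, for the 16 genes with at least 2 (y axis), ordered by span. Filled circles are the probe set used and open circles the others. HMGCS1 and SQLE span 0.66 and 0.67, and all 3 probe sets of INSIG1 lie below -0.3.

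Such disagreement was not rare on these arrays. Of the 16 genes with several probe sets above the filter, 5 (ACLY, ELOVL6, MVK, SCD and SQLE) held a probe set higher in both arrays beside one lower in both. That is 31.3%, against 23.3% of all such genes, and the median span was 0.20 against 0.18. Tested singly with the prior from unequal replicates, 7 of the 58 probe sets above the filter passed as lower, where 4.68% of all did, and 1 as higher, where 4.44% of all did. The 7 belong to INSIG1 with 3 and to HMGCS1, SQLE, MSMO1 and STARD4 with 1 each, and the higher one to FASN.

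Fatty acid genes were level with the vector or above it in the probe sets used. Of 6 genes, 5 were higher in both arrays, 0 were lower in both, and the median was 0.12. FASN, the fatty acid synthase, read 9.64 in the vector and 9.90 and 10.09 in the miR-146a arrays. Both lay above the vector, though apart from each other (SD 0.14, n = 2). The difference of 0.35 just missed the threshold across genes (adjusted p = 0.0577 by limma with the prior from unequal replicates, up to 0.474 under the alternatives) and just met it among single probe sets (adjusted p = 0.0499). Its dim second probe set differed by 0.11. ELOVL6, which elongates the products of FASN, read 9.83 against 10.20 and 10.02, but its other probe sets differed by 0.02 and -0.15.

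ACACA, the carboxylase that makes malonyl-CoA, read 10.44 in the vector and 10.63 and 10.61 in the miR-146a arrays, with 0.04 at its second probe set. ACLY, which makes cytosolic acetyl-CoA from citrate, read 11.59 against 11.65 and 11.63. Its other probe sets went down, by -0.15 and -0.26, and all averaged gave -0.12. SCD, the desaturase that makes oleic acid, showed the same split. The probe set used read 12.08 against 12.12 and 12.14, the other 3 ranged from -0.15 to -0.10, and all averaged gave -0.09. LPIN1, a phosphatidate phosphatase and SREBP target, read 7.13 against 7.17 and 7.09.

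**Figure D4:**
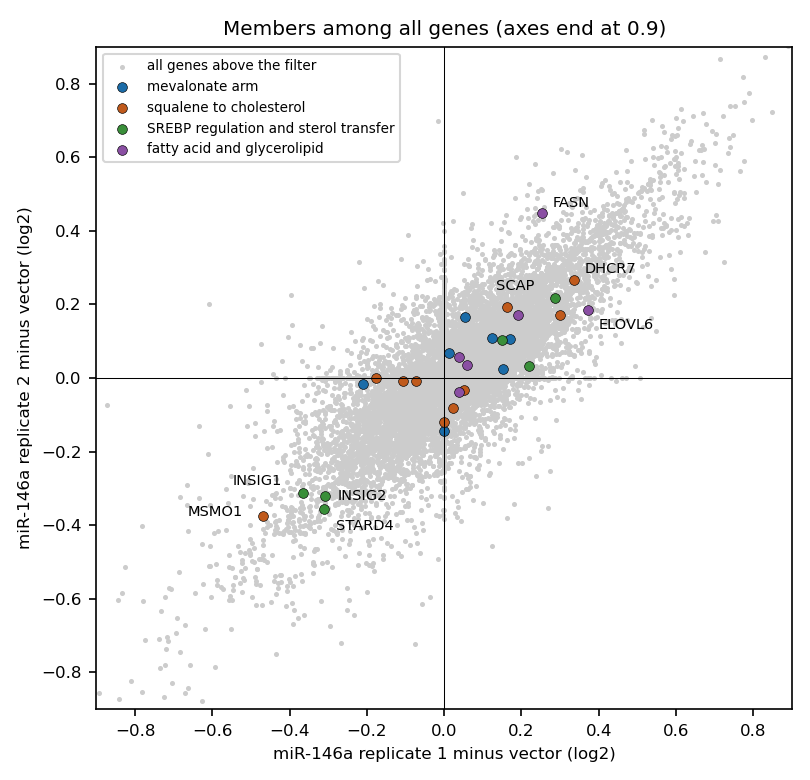
Difference from the vector on the log2 scale in miR-146a replicate 1 (x axis) and replicate 2 (y axis) for the 12444 genes above the filter (grey) and for the 29 genes (coloured by role). The axes end at 0.9, which leaves out 33 genes and none of the 29. MSMO1, INSIG1, INSIG2 and STARD4 lie in the lower left and most other coloured points near the centre. Both axes share the same vector array.

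Neighbouring pathways gave values of similar size. Of 71 genes on 5 further lists, 61 lay above the filter. The standard limma test called 0 of them, and with the prior from unequal replicates 4 of the 61 were called higher (6.56%) and 1 lower (1.64%), shares near the 4.76% and 2.36% of all genes. Those 5 had adjusted p-values of 0.118 to 0.238 with the standard prior. Among factors that cleave SREBPs or bind beside them, 4 of 10 genes were higher in both arrays and 3 lower, with a median of 0.00. NFYC, a subunit of NF-Y, read 7.56 in the vector and 7.90 and 7.87 in the miR-146a arrays and was called higher (adjusted p = 0.0461 by limma with the prior from unequal replicates), but its other 4 probe sets differed by -0.03 to 0.11. NFYA, another subunit, differed by 0.21, and its 5 probe sets ranged from -0.13 to that value. ERLIN2, a scaffold of sterol-regulated protein degradation, was at -0.19 and the GC-box factor SP1 at -0.11. The other probe set of SP1 was at 0.08.

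The prenyl branch, which takes isoprenoid units to dolichol, ubiquinone and protein prenylation, had 5 of 10 genes higher in both arrays and 3 lower, with a median of 0.06. DHDDS, a subunit of the dolichol synthase, read 7.53 in the vector and 7.94 and 7.84 in the miR-146a arrays (adjusted p = 0.0356 by limma with the prior from unequal replicates), while its other probe set differed by -0.02. COQ2, the prenyltransferase of ubiquinone synthesis, read 8.75 against 9.05 and 9.09 (adjusted p = 0.0453 by the same test) and had 1 probe set. RABGGTB, a subunit of the Rab prenyltransferase, was at -0.12 and GGPS1, the geranylgeranyl diphosphate synthase, at -0.13. The other probe set of GGPS1 was at 0.07.

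In the list of sterol storage, export and LXR genes, 4 of 11 were higher in both arrays and 5 lower. SOAT1, which esterifies cholesterol for storage, read 6.10 in the vector and 5.63 and 5.64 in the miR-146a arrays. It had 1 probe set above the filter, and this was dim, with the filter at 5.13. Its replicates nearly coincided 1.38-fold below the vector (adjusted p = 0.0093 by limma with the prior from unequal replicates). The lysosomal sterol carrier NPC2 differed by -0.20. MYLIP, a ubiquitin ligase under LXR control, differed by 0.17, but its 6 probe sets ranged from -0.11 to that value. TMEM97, the sigma-2 receptor and a known sterol-regulated gene, differed by 0.13, with its 4 probe sets from there to 0.27.

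Further genes of fatty acid and glycerolipid synthesis were higher in both arrays in 6 of 17 cases and lower in 8. MID1IP1, an activator of ACACA, read 7.13 in the vector and 7.46 and 7.48 in the miR-146a arrays (adjusted p = 0.0384 by limma with the prior from unequal replicates). SLC25A1, the mitochondrial citrate carrier, was at 0.13, the acyltransferase AGPAT2 at -0.22 and the acetyl-CoA synthetase ACSS2 at -0.24. Fatty acid oxidation genes had the lowest median of the lists, -0.11, with 2 of 13 higher in both arrays and 7 lower, and 0 called. ETFA, an electron carrier of this pathway, differed by -0.28 and CPT1A, the gatekeeper of mitochondrial import, by -0.18, with its 3 probe sets between -0.83 and 0.01. ACADS and ECHS1, enzymes of the oxidation spiral, differed by 0.14 and 0.03.

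**Figure D5:**
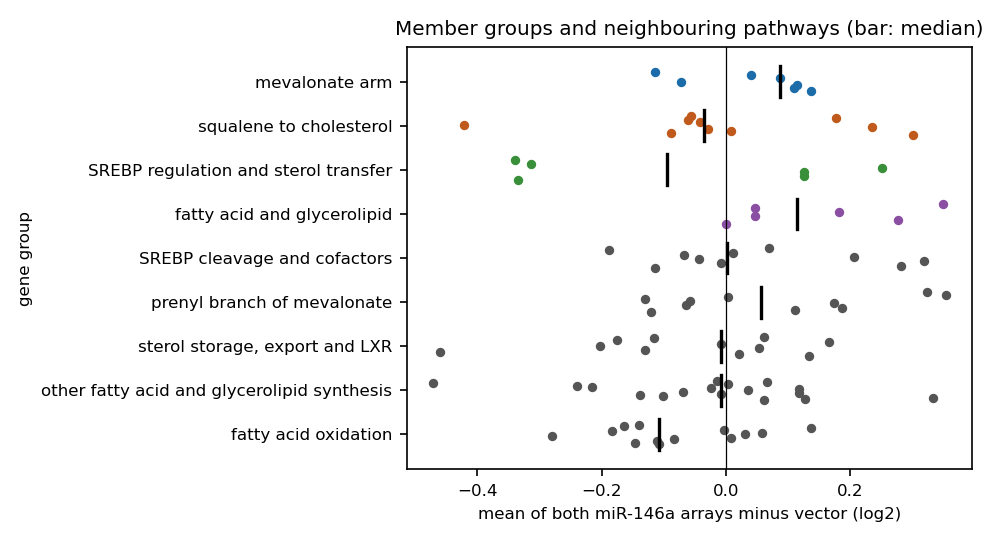
Mean difference from the vector on the log2 scale (x axis) of each gene (points) in the member groups (coloured) and in the 5 further lists (grey), with the group names on the y axis and black bars for medians. Medians ran from -0.11 for fatty acid oxidation to 0.12 for fatty acid and glycerolipid synthesis.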

How the data were processed

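Total RNA was made into biotin-labelled cRNA and read on Affymetrix arrays, per the labels' protocols. The authors deposited log2 values for 54675 probe sets, and RMA made them, per the submitters' processing notes. The RMA version was not given in the sources used here. RMA brings the arrays to a common distribution, so a shift of all genes would not show. No detection calls came with them. The 3 arrays, with 1 of the vector, limit the precision. Of 54613 non-control probe sets, 41091 were tied to 1 gene, 1801 to several and 11721 to none here, and those with several or none were not named. Entrez numbers matched the RefSeq table for 41037.

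Where a gene had several probe sets, that of highest signal (group means averaged) stood for it. Genes were kept above 5.13, the median of all probe sets. limma 3.58.1 (R 4.3.3) was fitted on the 12444 genes kept, with 1 residual degree of freedom and 0.55 prior degrees of freedom, or 10.3 when tied genes were left out of the prior. The fit was run on simulated data whose noise, for the vector too, was drawn from the differences between the miR-146a replicates. That run could not test whether the vector array varies like them. Alternatives were cyclic loess, an intensity trend, probe sets averaged, other filters (none, or percentile 70) and leaving out either miR-146a array, and testing every probe set was added after the data were seen. Promoter letters were searched on both strands. Figures used matplotlib 3.10.9.

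The members, lists, tests and the prior from unequal replicates were chosen with earlier results of these data known. Every member is named, and from each further list the 2 highest and 2 lowest genes by the array difference nearer 0.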

Additional observations from a re-analysis of the deposited data

How the results depend on the processing

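The count of the 29 genes called was 0 in limma with the standard prior. The count stayed 0 with each gene's probe sets averaged, with no filter and with a filter at percentile 70. It also stayed 0 with an intensity trend in the prior and with cyclic loess. It was 4 with the prior from unequal replicates, where 886 genes were called in all. With every probe set tested on its own under that prior it was 6, where 1727 genes were called in all. Of all genes, 4.76% were called higher and 2.36% lower at the gene level. Of all probe sets tested singly, 4.44% were called higher and 4.68% lower, and a gene with several could be called at any of them. Both settings share this prior, which leaves out tied replicates and had 10.3 degrees of freedom against 0.55. The gene-level fits with this prior and with the standard one used the same values and differed only in the prior. The 4 calls therefore rest on it. Tested singly with the standard prior, no probe set of the members passed. Tested singly, HMGCS1 and SQLE passed only at probe sets not used for the gene. By limma with that prior, the adjusted p of FASN went from 0.0577 to 0.0499. INSIG2 went from 0.0493 to 0.0551 and no longer passed. The median difference of the members was 0.033 to 0.051 on leaving out either miR-146a array. Of 173 member differences under the alternatives that keep both miR-146a arrays, 3 changed sign. With probe sets averaged SCD was at -0.088 and ACLY at -0.12, since the probe sets not used for these genes were all lower. With cyclic loess LPIN1 was at -0.016, against 0.001 in the main fit, and the cause of that shift was not tested. Of the 58 with 1 array left out, 3 more changed sign: HSD17B7 was at 0.023 without replicate 2, and EBP at -0.033 and LPIN1 at -0.037 without replicate 1. MVD fell below the filter at percentile 70. Leaving out a miR-146a array leaves no residual degree of freedom, so it gave values with no test. No paired analysis was possible because the vector has 1 array and the groups share fewer than 2 replicate numbers. With 1 vector array, a difference of that array from other vector cultures cannot be told apart from an effect of the construct.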
